A study of Homo sapiens with 16 samples.

Results

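Genes that carry chromosomes through mitosis were followed in U2OS cells, a human osteosarcoma line, that had been made quiescent and given an inhibitor of the kinase DYRK1A. The set is a list of 48 gene symbols: mitotic cyclins and their phosphatases, mitotic kinases, the chromosomal passenger complex, the spindle checkpoint, the kinetochore, mitotic kinesins, spindle-binding and cytokinesis proteins, and proteins that shape mitotic chromosomes. They were chosen by symbol and function, with earlier results of these data known, among them a gap between the 2 vehicle groups. All 48 were found among the 59081 genes of the count table, and all 48 were among the 20446 genes with enough counts to test. Their mean level over the 16 libraries was at least 10.8 CPM, which are counts scaled to the size of the library.

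Confluent cells were kept without serum for 48 h and treated for the last 24 h. There were 4 groups of 4 libraries: harmine hydrochloride at 10 µM with its vehicle water, and INDY at 25 µM with its vehicle DMSO. Harmine is a beta-carboline alkaloid and INDY a benzothiazole, and both inhibit DYRK1A. Every group is the same line. The labels do not state that replicates were separate cultures, so the spread behind each p-value may be only technical. Whether serum withdrawal and confluence stopped every cell from cycling is not known here, as no cell cycle profile was analysed.

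In quiescent cells the DREAM complex sits on promoters of cell cycle genes and keeps them silent. DYRK1A phosphorylates the DREAM subunit LIN52, a step needed to assemble the complex, so that its inhibition is used to test whether repressed genes rise. In cycling cells the core of the same complex joins the activators B-MYB and FOXM1 and drives mitotic genes in G2 and M phase. Mitotic genes are reached through a short element, the cell cycle genes homology region (CHR, TTTGAA or, less often, TTTAAA), which the subunit LIN54 binds, and many also carry CCAAT boxes, the sites of the activator NF-Y. Genes of the G1/S transition are reached mainly through E2F sites.

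The promoters of the mitotic genes held these elements more often than promoters at large. RefSeq promoters (GRCh38.p14; 250 bases before to 50 after each start site) were found for 42 of the 48 genes, 53 promoters in all. AURKA, BIRC5, BUB3, TPX2, TTK and UBE2C had no entry. Both strands were searched for exact matches, and TTTAAA, which reads the same on both, was counted once. TTTGAA was present in 62.3% of the 53 promoters, against 15.2% of all 35116 promoters of the table. TTTAAA was present in 26.4% against 12.2%, and CCAAT in 73.6% against 34.6%. Any of 4 E2F-type sites (TTTCCCGC, TTTCGCGC, TTTGGCGC or TTTGGCGG) was present in 11.3% against 3.35%. The TTTGAA matches also lay close to the start: 60.0% of the 45 matches began between 50 bases before and 20 after it, against 20.7% of 6238 matches in all promoters. In 71 promoters of a second list of mitotic genes, described below, TTTGAA was present in 45.1% and CCAAT in 60.6%. TTTAAA was present in 9.86% of them, no more often than in all promoters. By contrast, none of 26 promoters of origin licensing and replication genes held TTTGAA and 57.7% held an E2F-type site, while 65.4% held CCAAT. A match is a description of letters and was not tested as a binding site.

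**Figure D1:**
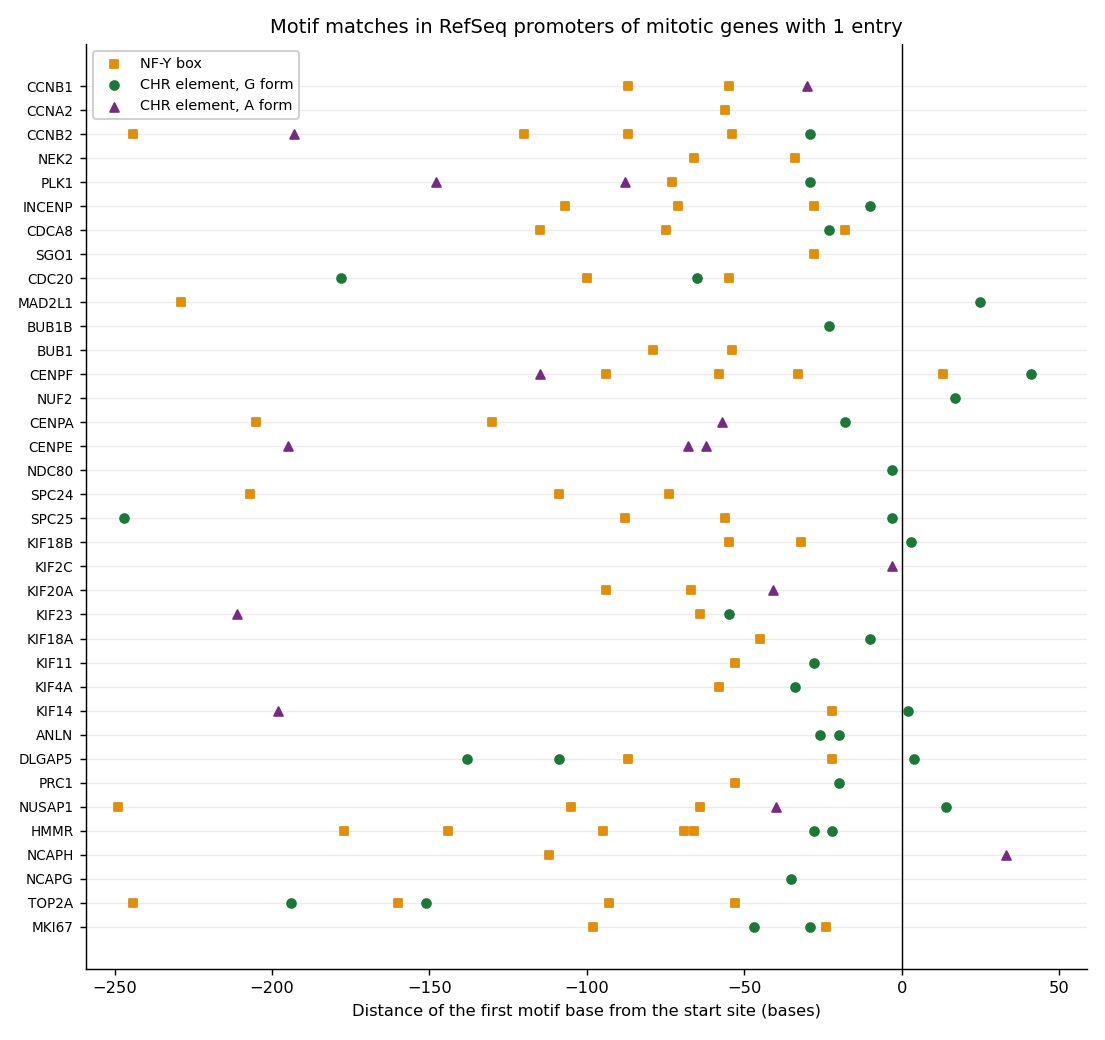
Position of motif matches on the x axis (bases from the start site, negative before it) in the RefSeq promoters of the 36 mitotic genes with 1 promoter entry, ordered by role on the y axis. Squares mark CCAAT, circles TTTGAA and triangles TTTAAA, on either strand. Most circles lie within 50 bases of the start, with squares further upstream.

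The 120 bases before the start are shown for 6 genes that gave different responses below, read along the gene, with CHR elements and CCAAT boxes in capitals. A box on the other strand reads as ATTGG. PLK1 is at chr16:23678769-23678888 and KIF20A at chr5:138178992-138179111, and both were lower with harmine. CDC20 is at chr1:43358861-43358980 and was higher with INDY. HMMR is at chr5:163460512-163460631 and KIF4A at chrX:70289984-70290103, and both were lower with INDY. NCAPG is at chr4:17810859-17810978 and was higher with harmine. All 6 lie on the plus strand.
PLK1: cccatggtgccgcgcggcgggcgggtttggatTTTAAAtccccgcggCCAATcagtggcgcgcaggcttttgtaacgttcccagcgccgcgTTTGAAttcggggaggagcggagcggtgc
KIF20A: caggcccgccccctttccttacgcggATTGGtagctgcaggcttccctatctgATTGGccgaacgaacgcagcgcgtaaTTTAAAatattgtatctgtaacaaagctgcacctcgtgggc
CDC20: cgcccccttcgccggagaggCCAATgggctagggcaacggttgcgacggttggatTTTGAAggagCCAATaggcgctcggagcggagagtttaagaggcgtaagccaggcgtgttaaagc
HMMR: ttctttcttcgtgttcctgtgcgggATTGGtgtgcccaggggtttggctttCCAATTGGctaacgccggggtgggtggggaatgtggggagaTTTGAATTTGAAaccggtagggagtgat
KIF4A: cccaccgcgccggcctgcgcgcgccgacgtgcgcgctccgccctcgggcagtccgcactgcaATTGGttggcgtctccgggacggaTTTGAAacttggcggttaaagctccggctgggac
NCAPG: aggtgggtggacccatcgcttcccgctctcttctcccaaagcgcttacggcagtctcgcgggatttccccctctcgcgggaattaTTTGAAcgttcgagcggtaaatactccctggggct
All 6 carried a CHR element, at -29 and, in the TTTAAA form, -88 in PLK1, -41 in KIF20A (the TTTAAA form), -65 in CDC20, -28 and -22 in HMMR, -34 in KIF4A and -35 in NCAPG, counted with -1 as the base before the start. Of the 6 shown, all but NCAPG also held CCAAT in this window. The same window of CCNB2, not shown, held TTTGAA at -29. That of SPC25, also not shown, held CCAAT at -88 and -56 but no whole CHR element. A TTTGAA match of SPC25 began at -3 and ran past the start. Over the members with a promoter entry, a CHR element of either form was present in 15 of 19 that were higher and 3 of 3 that were lower with harmine, and in 20 of 23 that were higher and 6 of 7 that were lower with INDY. Among members that did not pass, 18 of 20 held it for harmine and 10 of 12 for INDY. NEK2, AURKB, SGO1, SPC24, CCNA2 and BUB1 held neither form. Over all genes of the promoter table, 27.9% held either form. Genes on both sides, and genes that did not pass, thus held the element.

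With harmine, 24 of the 48 genes rose and 3 fell (PLK1, KIF20A and ECT2), at an adjusted p under 0.01. Over all genes tested, 24.9% rose and 22.8% fell. The median log2 fold change over the 48 genes was 0.21, against 0.02 over all genes. With INDY, 27 rose and 7 fell (NDC80, SPC24, SPC25, KIF11, KIF4A, KIF14 and HMMR), against 33.2% higher and 33.4% lower over all genes. The median was 0.22, against -0.01 over all genes, but the effects spread more widely, with quartiles of -0.03 and 0.53 for INDY and 0.10 and 0.36 for harmine. Both compounds raised 20 genes, 41.7% of the set, against 12.1% of all genes tested. No member fell with both. In bulk RNA, more mitotic cells and more of these mRNAs in each cell cannot be told apart.

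Most shifts were small. At least 1.5-fold changes among those that passed were 4 higher and 0 lower with harmine (8.41% and 7.9% of all genes) and 10 higher and 3 lower with INDY (14.3% and 19.4% of all genes). All 4 harmine libraries lay above all 4 water libraries in 29 genes and below them in 2, where all genes gave 28.6% and 26.4%. All 4 INDY libraries lay above all 4 DMSO libraries in 28 genes and below in 7, where all genes gave 33.4% and 34.1%.

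**Figure D2:**
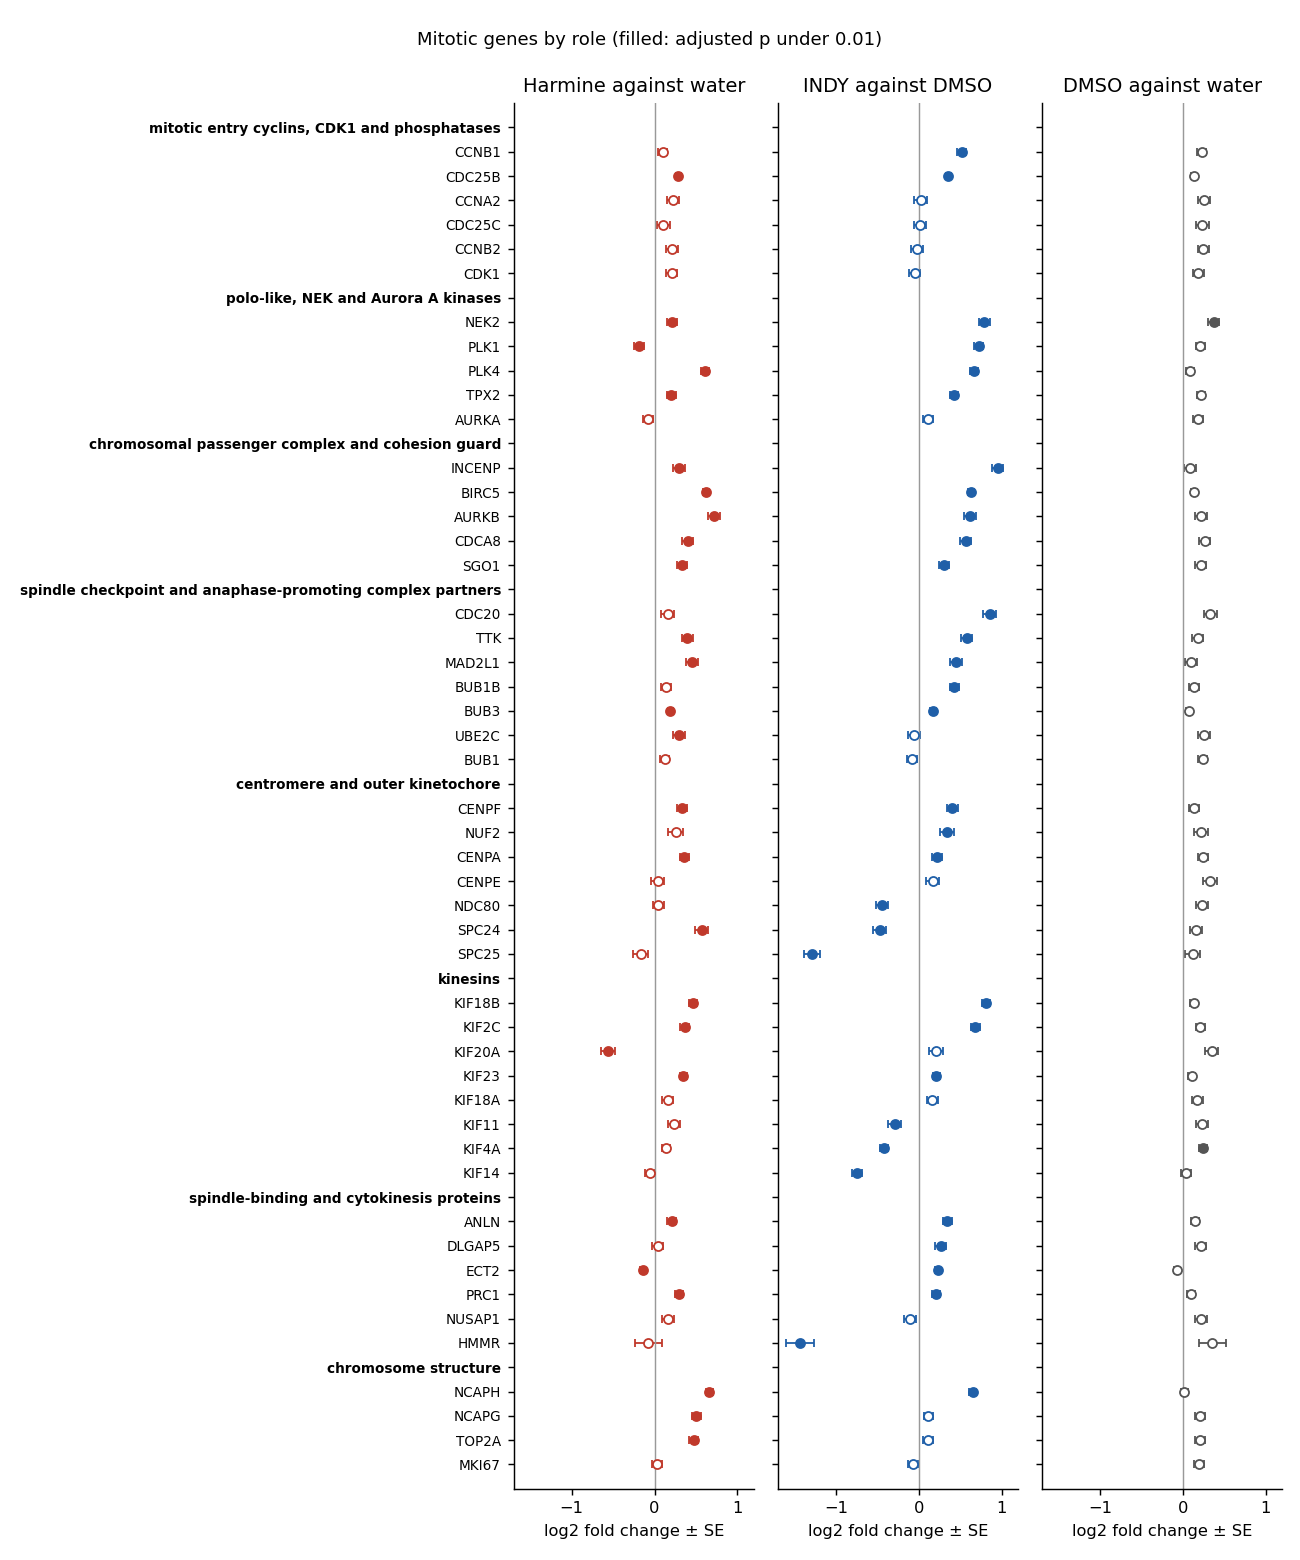
Log2 fold change with its standard error (x axis) for each of the 48 mitotic genes (y axis, by role and then by the INDY value), for harmine against water, INDY against DMSO and DMSO against water. Filled points had an adjusted p under 0.01. The passenger complex is to the right of 0 with both compounds, the INDY panel holds the points farthest to the left, HMMR and SPC25, and nearly all DMSO against water points are a little above 0.

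The chromosomal passenger complex rose as a whole with both compounds. AURKB, the Aurora B kinase that releases wrongly attached microtubules, had 32.4, 35.3, 31.5 and 32.9 CPM with harmine, against 19.0, 21.4, 22.5 and 17.2 CPM with water. With INDY it had 34.2, 38.6, 32.0 and 38.3 CPM, against 23.6, 23.5, 22.9 and 22.9 CPM with DMSO. Neither pair of groups overlapped, and the log2 fold changes were 0.72 (standard error, SE, 0.071, adjusted p = 8.1e-08) and 0.62 (SE 0.071, adjusted p = 2.2e-07). The AURKB value with harmine was the highest of the set. BIRC5 (survivin), which brings the complex to centromeres, averaged 116 ± 1.36 CPM with harmine and 75.6 ± 4.41 CPM with water (SD, n = 4 each), and 129 ± 5.42 CPM with INDY and 82.9 ± 0.866 CPM with DMSO. CDCA8 (borealin) rose by 0.40 on the log2 scale with harmine and 0.56 with INDY. INCENP, the scaffold of the complex, had the largest INDY rise of the set, 0.95 (SE 0.069, adjusted p = 4.3e-10), against 0.30 with harmine. Its INDY libraries held 109.8, 100.1, 140.4 and 108 CPM, with replicate 3 apart from the others, and its DMSO libraries 57.4, 60.4, 59.5 and 59.8 CPM. SGO1 (shugoshin), which guards centromeric cohesion, rose by 0.33 with harmine and by 0.31 with INDY. All 5 genes of this group thus passed as higher in both comparisons, as did 12.1% of all genes tested.

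Polo-like and NEK kinases rose with INDY, and PLK1 went the other way with harmine. PLK1, which drives mitotic entry and spindle assembly, had 91.8, 99.5, 87.4 and 102 CPM with INDY, against 54.1, 60.2, 58.4 and 57.5 CPM with DMSO. The log2 fold change was 0.72 (SE 0.055, adjusted p = 7.2e-10). With harmine PLK1 had 43.6, 45.3, 42.0 and 43.9 CPM, against 48.7, 52.0, 53.7 and 44.5 CPM with water. The harmine and water libraries overlapped, as water replicate 4 lay below harmine replicate 2, and the fall of -0.19 (SE 0.056, adjusted p = 0.0078) did not pass when any 1 of 7 libraries was left out (adjusted p 0.00089 to 0.022 over the 16 omissions). PLK4, the kinase that starts centriole duplication, rose with both, to 39.1 ± 0.581 CPM with harmine, against 25.7 ± 1.72 CPM with water, and to 43.0 ± 1.93 CPM with INDY, against 27.1 ± 1.24 CPM with DMSO (SD, n = 4 each). NEK2, which separates centrosomes, had 61.2, 61.8, 59.9 and 66.6 CPM with INDY, against 35.4, 36.4, 35.8 and 36.5 CPM with DMSO, a log2 fold change of 0.79 (SE 0.062). Its harmine value of 0.21 (adjusted p = 0.0087) missed the threshold in 14 of 16 fits that each left out 1 library (adjusted p 0.0026 to 0.043). TPX2, the spindle assembly factor that activates Aurora A, rose by 0.20 and 0.43 with harmine and INDY, and the harmine value missed the threshold in 6 of the 16 fits (adjusted p up to 0.015). AURKA, which encodes Aurora A itself, passed with neither: the values were -0.08 for harmine and 0.11 for INDY.

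Of 6 mitotic entry genes, 1 passed as higher with harmine and 2 with INDY, and 0 passed as lower. Over all genes tested, 24.9% and 33.2% were higher and 22.8% and 33.4% lower. CDK1, CCNA2, CCNB2 and CDC25C passed with neither compound, although without INDY replicate 3 CCNA2 passed as higher with harmine (adjusted p = 0.0050). CDK1, the kinase that triggers mitosis, averaged 57.8 ± 0.976 CPM with harmine and 50.1 ± 6.47 CPM with water, and 55.3 ± 3.91 CPM with INDY and 57.1 ± 2.16 CPM with DMSO (SD, n = 4 each). All 4 harmine libraries of CDK1 nevertheless lay above all 4 water libraries, at a log2 difference of 0.21 (SE 0.068, adjusted p = 0.015), which passed without water replicate 2 or 3 (lowest adjusted p = 0.0058). CCNB1, which encodes cyclin B1, the partner of CDK1 in mitosis, had 189.8, 199, 189 and 212 CPM with INDY, against 130.3, 143, 137 and 141 CPM with DMSO. That is a log2 fold change of 0.52 (SE 0.052, adjusted p = 4.2e-08), with no overlap. The harmine value of CCNB1 was 0.10 (adjusted p = 0.12). CDC25B, a phosphatase that activates CDK1, rose by 0.29 with harmine and 0.36 with INDY.

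Among spindle checkpoint genes, the checkpoint's target CDC20 stood out with INDY. CDC20, the activator of the anaphase-promoting complex, had 225, 244, 211 and 255 CPM with INDY, against 116, 139, 129.9 and 132 CPM with DMSO (log2 fold change 0.86, SE 0.077, adjusted p = 8.6e-09). Every INDY library was above every DMSO library. Harmine libraries held 112, 117, 113 and 118 CPM, overlapping the wide water range of 93.9, 114, 115 and 87.6 CPM, and the difference of 0.16 did not pass (adjusted p = 0.086). TTK (the checkpoint kinase MPS1) rose by 0.39 with harmine and 0.58 with INDY, MAD2L1 (the CDC20 inhibitor MAD2) by 0.45 and 0.45, and BUB3, a kinetochore-bound checkpoint protein, by 0.19 and 0.17. BUB1B (BUBR1) rose with INDY by 0.43, and its harmine value of 0.14 did not pass. Of its transcript sequence, 5.2% of 100-base stretches are shared with overlapping loci. BUB1, a checkpoint kinase, passed with neither. UBE2C, the ubiquitin-conjugating enzyme of the anaphase-promoting complex, rose by 0.29 with harmine and had -0.06 with INDY.

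The 4 subunits of the NDC80 complex, the rod that couples kinetochores to microtubules, moved in different directions. With INDY, SPC25 fell to 5.54, 7.58, 5.52 and 8.18 CPM, against 15.7, 16.7, 16.1 and 16.6 CPM with DMSO, a log2 fold change of -1.28 (SE 0.097, adjusted p = 7.5e-10). SPC24, its partner at the inner end of the rod, had 7.80, 9.33, 6.97 and 7.46 CPM with INDY, against 11.1, 11.8, 10.3 and 10.5 CPM with DMSO (-0.47, SE 0.079, adjusted p = 2.8e-05). NDC80, at the microtubule end, had 56.3, 63.2, 51.9 and 64.0 CPM with INDY, against 75.7, 82.3, 80.8 and 81.0 CPM with DMSO (-0.44, SE 0.069, adjusted p = 1.1e-05). In these 3 genes all INDY libraries were below all DMSO libraries. NUF2, the partner of NDC80, had 47.7, 50.2, 39.7 and 51.2 CPM with INDY, against 36.1, 39.5, 37.3 and 36.4 CPM with DMSO, and rose (0.34, SE 0.086, adjusted p = 0.0016). With harmine, SPC24 was the only subunit to pass: it had 14.1, 15.1, 14.3 and 14.6 CPM, against 10.1, 10.0, 10.4 and 8.62 CPM with water, and rose by 0.57 (SE 0.076, adjusted p = 4e-06). SPC25 (-0.17), NDC80 (0.05) and NUF2 (0.25) did not pass, but NUF2 did without water replicate 2 or INDY replicate 3 (lowest adjusted p = 0.0047). The centromeric histone CENPA rose with both (0.36 with harmine and 0.22 with INDY), as did CENPF, a large kinetochore corona protein (0.33 and 0.41), while CENPE, a kinetochore motor, passed with neither unless INDY replicate 3 was left out, when it was higher with INDY (adjusted p = 0.0088).

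Of 8 mitotic kinesins, 3 rose and 1 fell with harmine, against 24.9% and 22.8% of all genes tested. With INDY 3 rose and 3 fell, 37.5% each, which is near the 33.2% and 33.4% of all genes. KIF20A (MKLP2), which moves the passenger complex to the spindle midzone, had the largest fall with harmine: 44.7, 48.2, 47.5 and 49.8 CPM, against 61.7, 78.2, 79.3 and 60.6 CPM with water. The log2 fold change was -0.56 (SE 0.086, adjusted p = 1.8e-05), with every harmine library below every water library. With INDY, KIF20A had 97.3, 109.8, 90.3 and 115 CPM, against 82.1, 91.8, 91.4 and 90.6 CPM with DMSO (0.21, adjusted p = 0.028), and the groups overlapped. Without INDY replicate 3 it passed as higher (adjusted p = 0.0051). KIF14, needed for cytokinesis, fell with INDY to 37.2, 39.0, 31.6 and 38.2 CPM, against 58.2, 63.3, 60.8 and 61.5 CPM with DMSO, a log2 fold change of -0.74 (SE 0.061, adjusted p = 2.2e-09). The chromokinesin KIF4A and KIF11 (Eg5), which pushes the spindle poles apart, also fell with INDY, by -0.42 and -0.29, and none of these 3 passed with harmine (-0.06, 0.14 and 0.24), except KIF11 without water replicate 3 or INDY replicate 3 (lowest adjusted p = 0.0015). KIF2C (MCAK) and KIF18B, which depolymerise or bind microtubule ends together, rose with both: KIF18B averaged 66.1 ± 2.67 CPM with INDY and 37.7 ± 1.84 CPM with DMSO, and 47.6 ± 1.68 CPM with harmine and 34.4 ± 2.23 CPM with water (SD, n = 4 each). KIF2C rose by 0.68 with INDY and 0.36 with harmine. KIF23 (MKLP1), a subunit of centralspindlin, rose by 0.35 with harmine and 0.21 with INDY, and KIF18A passed with neither.

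HMMR gave the deepest fall of the set. It encodes a spindle and hyaluronan-binding protein, and had 21.0, 31.2, 15.2 and 31.0 CPM with INDY, against 55.4, 69.4, 68.7 and 71.0 CPM with DMSO, a log2 fold change of -1.43 (SE 0.17, adjusted p = 3.6e-07). The groups did not overlap, but INDY replicates 1 and 3 were below replicates 2 and 4. With harmine it had 49.1, 50.0, 47.3 and 49.9 CPM, between the extremes of 45.9, 58.9, 61.2 and 40.5 CPM with water (-0.08, adjusted p = 0.71). ECT2, the exchange factor that activates RhoA at the cleavage furrow, fell slightly with harmine, to 105, 109.7, 105 and 104 CPM, against 120.4, 114, 117 and 116 CPM with water (-0.14, SE 0.033, adjusted p = 0.0012). It rose with INDY, to 134, 127, 122 and 135 CPM, against 112, 107, 112 and 112 CPM with DMSO (0.23, SE 0.033, adjusted p = 4.9e-06). Neither pair of ECT2 groups overlapped. ANLN (anillin), the scaffold of the contractile ring, rose by 0.21 with harmine and 0.34 with INDY, and the harmine value missed the threshold in 5 of the 16 fits that left out 1 library (adjusted p up to 0.017). PRC1, which bundles midzone microtubules, rose by 0.29 and 0.20, but 45.3% of its 100-base stretches are shared with an overlapping locus, so that its counts are uncertain. The same holds for NUSAP1, a microtubule-bundling protein with 70.2% shared, which passed with neither compound. DLGAP5 (HURP), which stabilises kinetochore fibres, rose with INDY only by the test, at 0.26 against 0.04 with harmine, and the difference between these values did not pass (adjusted p = 0.045), though it did without INDY replicate 3 (adjusted p = 0.0078).

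**Figure D3:**
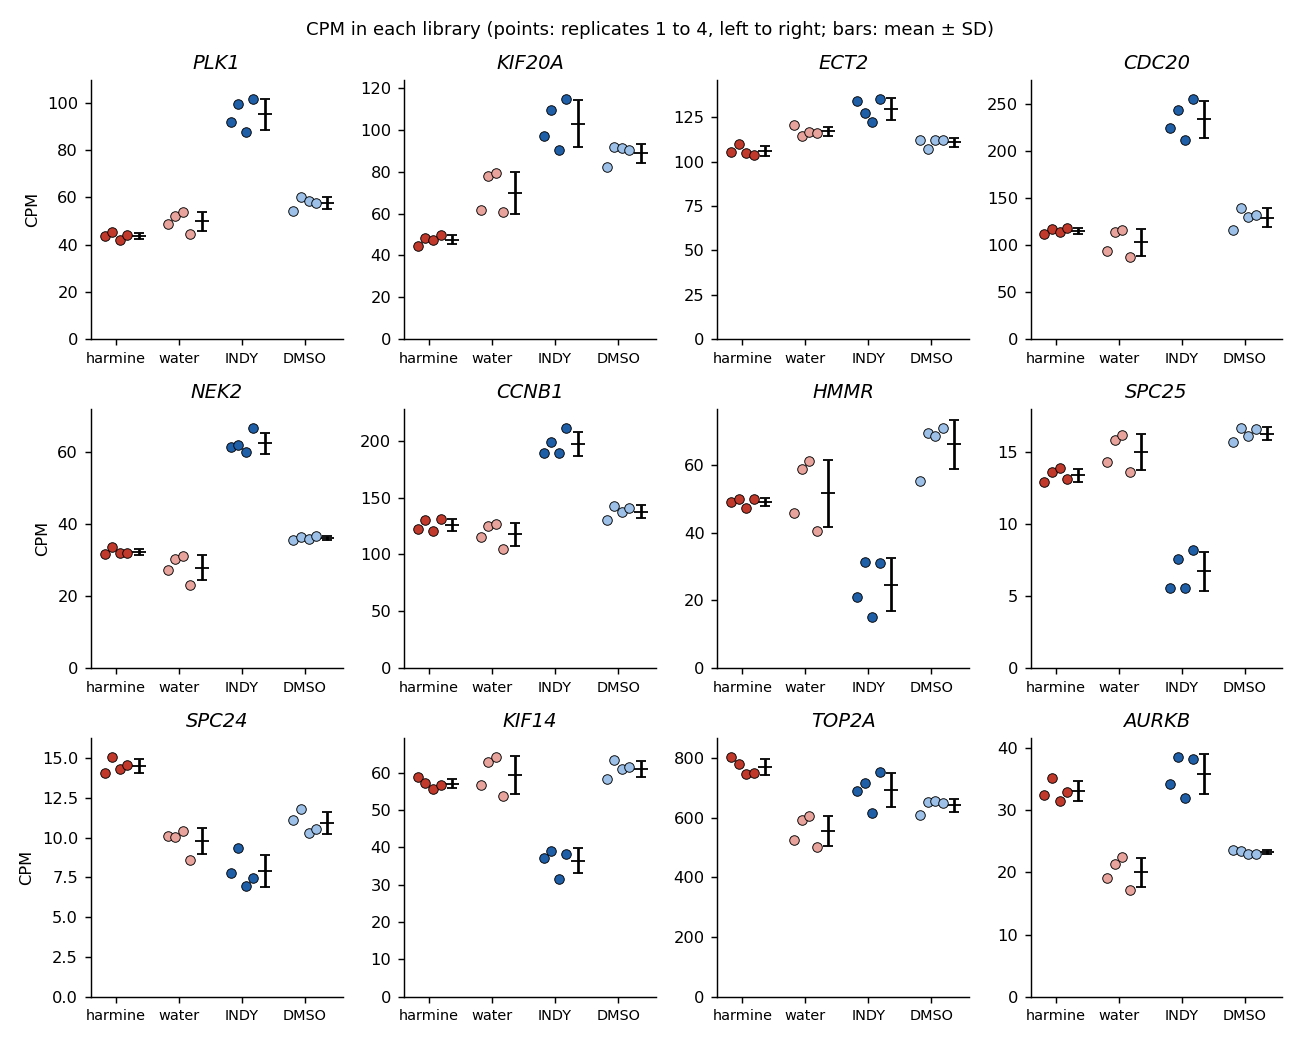
CPM of 12 mitotic genes (y axis, starting at 0) in each of the 16 libraries (x axis: group, with replicates 1 to 4 from left to right), with the mean and SD of 4 beside them. KIF20A is lowest with harmine, HMMR, SPC25 and KIF14 are lowest with INDY, and CDC20, NEK2, CCNB1 and PLK1 are highest with INDY.

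Of 4 genes of chromosome structure, 3 rose with harmine and 1 with INDY, against 24.9% and 33.2% of all genes tested. TOP2A, the topoisomerase that untangles sister chromatids, had 804, 778, 747 and 748 CPM with harmine, against 524, 591, 605 and 500.4 CPM with water, a log2 fold change of 0.47 (SE 0.059, adjusted p = 1.6e-06). With INDY it had 692 ± 57.7 CPM and with DMSO 641 ± 21.8 CPM (mean ± SD, n = 4 each), and the groups overlapped (0.11, adjusted p = 0.092). NCAPG, a subunit of condensin I, the complex that compacts chromosomes, rose by 0.51 with harmine and had 0.11 with INDY. The INDY calls of both genes rested on INDY replicate 3: without it both passed as higher, TOP2A at 0.17 (adjusted p = 0.0080) and NCAPG at 0.17 (adjusted p = 0.0086). NCAPH, another subunit, had 151, 150.3, 143 and 145 CPM with harmine, against 91.0, 96.3, 95.7 and 90.0 CPM with water, and 148, 157, 131 and 156 CPM with INDY, against 92.1, 94.6, 96.9 and 93.4 CPM with DMSO. It rose with both (0.66 and 0.65). MKI67, which encodes the proliferation marker Ki-67, passed with neither: it had 252, 254, 247 and 250.1 CPM with harmine, against 224, 269.7, 268 and 223 CPM with water, and 283, 275, 235 and 274 CPM with INDY, against 271, 289, 290.0 and 273 CPM with DMSO. The 95% intervals of the MKI67 log2 difference, from the SE, were -0.09 to 0.15 with harmine and -0.19 to 0.05 with INDY.

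Each compound's effect was then set against the other's by testing the difference between them, harmine effect minus INDY effect, while doses and vehicles differed. It passed for 20 of the 48 genes, 10 above and 10 below 0, where 28.1% of all genes tested were above and 26.4% below. Above 0, that is more positive with harmine, were HMMR (1.36), SPC25 (1.12), SPC24 (1.04), KIF14 (0.68), KIF4A (0.56), KIF11 (0.53), NDC80 (0.49), NCAPG (0.39), TOP2A (0.36) and UBE2C (0.35). Below 0 were PLK1 (-0.91), KIF20A (-0.77), CDC20 (-0.70), INCENP (-0.65), NEK2 (-0.58), CCNB1 (-0.42), ECT2 (-0.37), KIF18B (-0.35), KIF2C (-0.32) and BUB1B (-0.29). The UBE2C difference missed the threshold in 10 of 16 fits that each left out 1 library, and that of BUB1B without DMSO replicate 1. The differences of TPX2, ANLN and DLGAP5 passed, below 0, without INDY replicate 3, and that of TPX2 also without water replicate 4. For BIRC5 the difference was -0.01, with a 95% interval of -0.12 to 0.09.

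The vehicle groups were set against each other too, a gap that was known when the genes were listed and so is a description. Of the 48, 47 were higher with DMSO than with water (all but ECT2, -0.08), against 49.5% of all genes tested. The median log2 difference was 0.21, against 0.00 over all genes. That median is as large as the one with harmine against water. By edgeR's quasi-likelihood test, however, 2 passed as higher and 0 as lower (37 higher and 1 lower at an unadjusted p under 0.05, and 18 higher and 0 lower with DESeq2). The 2 were NEK2 (0.37, SE 0.064, adjusted p = 0.0013) and KIF4A (0.24, SE 0.047, adjusted p = 0.0035), where 1.58% of all genes were higher and 2.71% lower. This count rested on the threshold and the tool, and no share over all genes was counted for the other p thresholds and fits. At an adjusted p under 0.05 it was 22, and leaving out 1 library moved it between 1 (without water replicate 1 or 4, or DMSO replicate 2, 3 or 4) and 17 (without INDY replicate 3). It was 10 without water replicate 2, 13 without water replicate 3, 7 without INDY replicate 4 and 6 without DMSO replicate 1. KIF4A missed the threshold in 5 of those 16 fits. All 4 DMSO libraries lay above all 4 water libraries in 23 genes and below in 1 (ECT2), against 9.76% and 10.2% of all genes. NEK2 had 35.4, 36.4, 35.8 and 36.5 CPM with DMSO, against 27.1, 30.1, 30.9 and 23.1 CPM with water, and CDC20 116, 139, 129.9 and 132 CPM against 93.9, 114, 115 and 87.6 CPM, with its lowest DMSO library just above the highest water library.

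The water libraries themselves did not lie together. On a scale where each gene's log2 CPM is set against its water mean and the median over the 48 genes is taken, water replicates 1 to 4 stood at -0.07, 0.10, 0.12 and -0.16. Harmine libraries stood at 0.23, 0.24, 0.21 and 0.22, INDY libraries at 0.44, 0.50, 0.30 and 0.53, and DMSO libraries at 0.13, 0.25, 0.23 and 0.22. All harmine libraries were therefore above all water libraries, INDY libraries were above the rest, and harmine and DMSO libraries overlapped. Water replicates 1 and 4 were both below replicates 2 and 3 in 45 of 48 mitotic genes, against 27.4% of all genes, and INDY replicates 1 and 3 were both below replicates 2 and 4 in 42, against 27.6% of all genes. DMSO replicate 1 was the lowest of its group in 42, against 28.4% of all genes. The median coefficient of variation of the mitotic genes was 2.64% with harmine, 9.50% with water, 8.20% with INDY and 3.62% with DMSO, against 2.83%, 3.83%, 5.21% and 2.96% over the 10304 genes whose mean level was at least that of the lowest mitotic gene. The harmine libraries were thus close together and the water libraries far apart. What set these libraries apart was not tested.

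With water replicates 2 and 3 alone, a choice made after the data were seen, 19 genes were higher with harmine and 3 lower, and the median log2 fold change was 0.11 in place of 0.21. With INDY replicates 2 and 4 alone, also chosen after the data were seen, 32 were higher and 6 lower with INDY, with a median of 0.29. Against the pooled 8 water and DMSO libraries, harmine gave 20 higher and 4 lower with a median of 0.12, and INDY 33 higher and 6 lower with a median of 0.34. The share of all genes that passed was not counted in these fits, which differ from the main fit in the libraries compared.

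**Figure D4:**
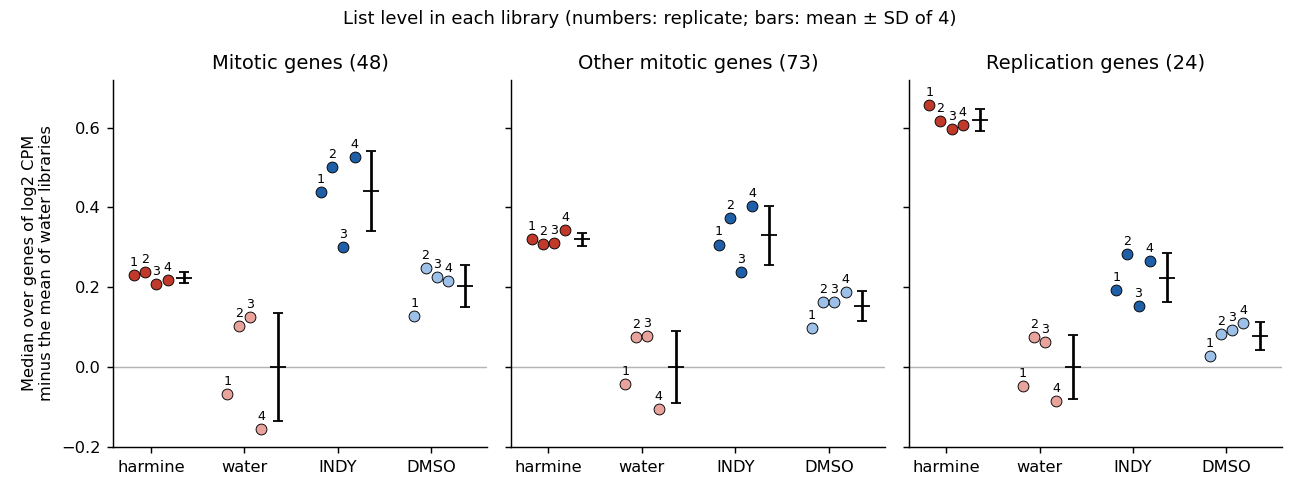
Level of 3 gene lists in each of the 16 libraries: each gene's log2 CPM less its water mean, as the median over the genes (y axis), by group (x axis), numbered by replicate, with the mean and SD of 4 as bars. In the mitotic genes INDY libraries (0.30 to 0.53) stand highest and water libraries (-0.16 to 0.12) lowest, whereas in the replication genes harmine libraries stand highest.

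A second list of 73 other mitotic genes was counted in the same way. With harmine 52 rose and 3 fell (median 0.31), against 24.9% and 22.8% of all genes. With INDY 39 rose and 15 fell (median 0.18), against 33.2% and 33.4% of all genes. The 3 largest harmine values were PKMYT1, which inhibits CDK1 (1.00), CIT, a cytokinesis kinase (0.97), and CENPP, an inner kinetochore protein (0.90). The 3 INDY values largest in size were CENPM (-0.81) and CENPI (-0.77), both of the inner kinetochore, and GTSE1 (0.79), a microtubule-binding protein. Of 17 inner kinetochore genes, 12 rose with harmine (70.6%). With INDY 6 rose (35.3%) and 7 fell (41.2%), which is near the shares over all genes. All 6 further condensin subunits rose with harmine (0.20 to 0.46), while with INDY 1 rose (16.7%) and 2 fell (33.3%). The difference between the compounds' effects passed for 31 of the 73 above 0 and 13 below, against 28.1% and 26.4% of all genes. Between DMSO and water, 7 of the 73 were higher with DMSO by edgeR's quasi-likelihood test and 0 lower (47 higher and 2 lower at an unadjusted p under 0.05, and 17 and 1 with DESeq2). By the same edgeR test 1.58% of all genes were higher and 2.71% lower. No share over all genes was counted at the unadjusted p or with DESeq2.

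Origin licensing and replication genes, which are mostly switched on at the G1/S transition, separated the compounds more. Of 24 such genes 22 rose with harmine (91.7%, against 24.9% of all genes), with a median log2 fold change of 0.64. With INDY 14 rose (58.3%, against 33.2% of all genes) and 8 fell, with a median of 0.18. The 8 that fell are 33.3% of the list, near the 33.4% of all genes that were lower with INDY. MCM5, a subunit of the replicative helicase, rose by 1.17 with harmine and 0.48 with INDY. The polymerase alpha subunits POLA2 and POLA1 fell with INDY by -1.21 and -1.01. The difference between the compounds' effects passed for 20 of the 24 above 0 and 1 below, against 28.1% and 26.4% of all genes. No gene of this list passed between DMSO and water at an adjusted p under 0.01 by edgeR's quasi-likelihood test (6 were higher at an unadjusted p under 0.05, and 2 with DESeq2). The share of all genes was not counted for the unadjusted p or DESeq2.

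Of 17 genes for the regulators of mitotic transcription, 12 rose and 1 fell with harmine, and 8 rose and 1 fell with INDY. Over all genes, 24.9% rose and 22.8% fell with harmine, and 33.2% rose and 33.4% fell with INDY. FOXM1 rose with harmine (0.59), with 525 ± 7.79 CPM against 349 ± 6.39 CPM with water (SD, n = 4 each), and had 0.05 with INDY (adjusted p = 0.12). MYBL2, which encodes B-MYB, did likewise (0.65 with harmine, 0.00 with INDY, adjusted p = 0.96). RBL1 (p107), a DREAM pocket protein, rose with both (0.92 and 0.74), as did LIN54 (0.34 and 0.41). NFYA, the DNA-binding subunit of NF-Y, fell with harmine (-0.48) and rose with INDY (0.49). E2F5 was the only regulator to pass between the vehicles, lower with DMSO (-0.59, adjusted p = 0.00074).

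Library totals were 44301910 to 65889667 estimated counts, and mitochondrially encoded genes took 2.61 to 3.49% of them. Of 6 mesenchymal and osteoblast lineage markers, 5 (VIM, FN1, SPARC, COL1A1 and RUNX2) reached 1 CPM and COL1A2 stayed at or below 0.194 CPM. Their summed level was 5207 to 5387 CPM with harmine against 3540 to 4136 with water, and 3435 to 3917 with INDY against 3798 to 4132 with DMSO. Of 5 epithelial markers, CLDN4 and EPCAM reached 1 CPM, and the summed level was 30.4 to 33.5 CPM with harmine against 60.3 to 79.0 with water, and 36.4 to 48.4 with INDY against 51.0 to 61.8 with DMSO. The 5 blood cell markers summed to at most 0.824 CPM in any library. The part of these differences in the mitotic gene results was not tested.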

How the data were processed

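Deposited values were estimated counts at gene level. The authors quantified reads with Salmon 1.1, with GC and sequence bias corrections, on GENCODE transcripts and a GRCh38 decoy, summed them to genes with tximport and used edgeR 3.28.1 for testing. Libraries were stranded and poly(A)-selected. The reads were not used here.

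For testing, the estimates were rounded to integers. Of 59081 genes, 20446 passed filterByExpr. One model of the 4 groups was fitted to all 16 libraries with edgeR 4.0.16 in R 4.3.3 (TMM factors, glmQLFit and glmQLFTest), and p-values were adjusted by Benjamini-Hochberg over all genes tested, at a threshold of 0.01. CPM are TMM-normalised, and log2 CPM of single libraries used a prior count of 2. The standard error is the absolute log2 fold change divided by the square root of the F statistic. The scripts were tested on simulated data. Harmine against water and INDY against DMSO share no library, while DMSO against water shares a group with each. Totals were 44301910 to 65889667 per library, and the part of counting noise in the spread of single genes was not tested.

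To find genes whose reads can be split, every 100-base stretch of a gene's transcripts (GENCODE on GRCh38) was looked up in all other genes. Replicates of every group differed by more than sampling noise, so that none was counted as a repeat deposit.

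The mitotic genes and the comparison lists were chosen with earlier results of these data known. All listed mitotic genes were named. From the other lists the text names the 3 genes with the largest absolute log2 fold change per list and compound among those that passed, and regulators that passed between the vehicles. Other values of those genes, and markers, are given beside them. Alternatives were DESeq2 1.42.0, RLE factors, no filter, a floor of 10 counts per library, a threshold of 0.05, at least 1.5-fold, only the 8 libraries of a comparison, a replicate block, both vehicle groups as control, and leaving out each library.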

Additional observations from a re-analysis of the deposited data

Results flagged for a closer look

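For 14 of 192 groups of 4 libraries, 1 library lay farther from the rest than Dixon's 95% critical value allows. Chance flags about 1 in 20 groups. DMSO replicate 1 was the low one in 8 of them: CCNA2 (58.4 CPM), CDK1 (53.8 CPM), UBE2C (58.7 CPM), KIF20A (82.1 CPM), KIF18A (21.2 CPM), NUSAP1 (97.9 CPM), HMMR (55.4 CPM) and TOP2A (608 CPM). Other DMSO values stood low, BIRC5 in replicate 3 (81.6 CPM) and ECT2 in replicate 2 (107 CPM). With INDY, replicate 3 was low for SGO1 (20.9 CPM) and CENPF (264 CPM), and replicate 2 for PLK4 (40.1 CPM). TPX2 was high in harmine replicate 4 (148 CPM), where the group spans less than 3 CPM.

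The effect of harmine minus that of INDY differed from 0 by the interaction test, at an adjusted p under 0.01, in 20 genes. Above 0 were 20.8% of the 48 and below 0 20.8%, fewer than the 28.1% and 26.4% of all genes tested. The difference was positive on the log2 scale for HMMR (1.36), SPC25 (1.12), SPC24 (1.04), KIF14 (0.68), KIF4A (0.56), KIF11 (0.53), NDC80 (0.49), NCAPG (0.39), TOP2A (0.36) and UBE2C (0.35). It was negative for PLK1 (-0.91), KIF20A (-0.77), CDC20 (-0.70), INCENP (-0.65), NEK2 (-0.58), CCNB1 (-0.42), ECT2 (-0.37), KIF18B (-0.35), KIF2C (-0.32) and BUB1B (-0.29). Doses and vehicles differed between the compounds, and their part in these differences cannot be told apart from that of the compounds.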

How the results depend on the processing

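Over 27 alternative settings, none of the log2 fold changes of the 48 genes that passed in either setting changed sign. The counts with harmine and INDY kept within 1.5 times, except at a minimum of 1.5-fold. There harmine gave 4 higher and 0 lower (8.41% and 7.9% of all genes) and INDY 10 higher and 3 lower (14.3% and 19.4%). The difference between the effects gave 4 above and 4 below, where 3511 and 2446 of all 20446 genes tested were above and below. The 2 genes higher with DMSO than with water became 18 with DESeq2, 6 with RLE factors, 18 with no filter on low counts, 7 with at least 10 counts in every library, 22 at an adjusted p under 0.05, 0 at a minimum of 1.5-fold, 1 with water replicates 2 and 3 only and 19 with INDY replicates 2 and 4 only, of which the last 2 were chosen after the data were seen. The cause was not tested, and no share over all genes was counted for these other fits and p thresholds. In the 250 bases before the start alone, 45.3% of the mitotic promoters held TTTGAA, against 13.3% of all promoters.

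Leaving out 1 library at a time gave 21 to 26 higher and 2 to 3 lower with harmine, 27 to 31 higher and 7 to 7 lower with INDY, 1 to 17 higher and 0 to 0 lower with DMSO, and 9 to 10 above and 9 to 13 below for the difference. Nothing in the labels says that a replicate number marks a shared day or culture. In their deviations from the group means, same-numbered libraries 1 to 4 correlated at 0.08, -0.03, 0.00 and -0.13 between harmine and water, 0.12, 0.18, -0.12 and 0.16 between INDY and DMSO, and 0.14, 0.18, 0.11 and -0.22 between DMSO and water. In each comparison at least 1 pair was thus below 0.1, not every library correlated best with its own number, and the numbers were not taken as pairs. With a replicate block the counts were 23 higher and 3 lower with harmine, 27 and 7 with INDY, 4 and 0 with DMSO, and 10 and 10 for the difference. The mean level of every mitotic gene was at least 10.8 CPM, so that none was near the filter on low counts.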
